A study of Mus musculus with 6 samples.

Results

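The 33 genes described here encode the enzymes of glycolysis (22 genes) and of glycogen metabolism (11 genes), grouped by reaction step and by isozyme. They were chosen by name from textbook pathways, with earlier results of these data known. All 33 were found among the 35127 genes of the annotation. Expression was measured by RNA sequencing of mouse astrocytes in 6 libraries. The tumour libraries (n = 3) came from astrocytes of brains that carried a small-cell lung cancer (SCLC) allograft, and the sham libraries (n = 3) came from astrocytes of brains that received a sham injection. Strain, genotype and age of the mice, the tumour line, the time after injection and the way the astrocytes were isolated were not given in the sources used here. Whether each library is a separate animal or culture is not given either, so the p-values reflect only library-to-library spread, which may be technical.

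Glycolysis splits glucose into pyruvate and yields ATP without oxygen. Its committed steps are those of hexokinase, phosphofructokinase and pyruvate kinase, and most steps have several isozymes, encoded by separate genes with their own tissue range and regulation. Astrocytes are known as strongly glycolytic cells and hold most of the brain's glycogen, a branched glucose polymer that glycogen synthase and branching enzyme build and glycogen phosphorylase breaks down. Many glycolytic genes are known targets of the hypoxia-inducible factor HIF-1.

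Depth was similar, at 22133723 to 25800897 estimated reads per library. The tumour libraries lay very close to each other, as did sham libraries 1 and 2, with a root mean square log2 difference of 0.322 to 0.352 over the tested genes. Sham library 3 differed from sham 1 and 2 by 0.795 to 0.802, more than the tumour libraries differed from any sham library (0.734 to 0.749). The chi-square per degree of freedom of the near pairs was 2.83 to 3.64, above sampling noise. It reached 101 to 120 when a tumour library was set against a sham library. For sham 3 set against sham 1 or 2 it was 125 to 126. An excess over sampling noise cannot tell technical from biological replicates. The 6 libraries were kept as separate samples only as labelled. Astrocyte markers were present in every library. Their summed level over 10 genes was 5488 to 5590 CPM in the tumour libraries and 7260, 7273 and 4341 CPM in sham libraries 1 to 3. CPM are library-size normalised counts, scaled by TMM. Glul was the largest part (2320 to 2350 and 1660 to 2670 CPM). Aldoc (912 to 926 and 730 to 1140 CPM) is also one of the genes described here. The markers did not move alike. Aldh1l1 (339 to 352 against 228 to 281 CPM) and Slc1a2 (307 to 325 against 118 to 277 CPM) lay above all sham libraries. Gja1 lay below them (530 to 553 against 707 to 1210 CPM), and the others overlapped between the groups. Of 14 SCLC and neuroendocrine markers the summed level was 125.5 to 129.8 and 106.7 to 146.1 CPM, with the neural adhesion gene Ncam1 the largest part (98.7 to 100 and 65.4 to 117 CPM), the peptide gene Grp at 0 reads in all libraries and Chga at 0 in the tumour libraries. Epcam stood at 0.237 to 0.331 CPM in the tumour libraries and at 0 reads in the sham libraries. The 8 markers of pericytes and fibroblasts summed to 3815 to 3849 CPM in the tumour libraries and 3529, 3533 and 6018 CPM in sham 1 to 3. Col1a2 (2310 to 2350 and 2050 to 3830 CPM) and Col1a1 (962 to 970 and 1070 to 1720 CPM) were the largest parts. Rgs5 had at most 0.544 CPM. The 8 oligodendrocyte lineage markers summed to 365.6 to 372.0 CPM, and to 304.6, 288.8 and 448.3 CPM in sham 1 to 3. The 6 endothelial markers, mostly Cdh5, summed to 619.1 to 626.6 CPM, and to 613.9, 621.2 and 547.3 CPM. Markers of microglia and macrophages summed to 131.4 to 135.4 and 90.0 to 122.1 CPM over 10 genes. Of these 2 lay above all sham libraries and 0 below, beside 22.2% and 21.9% of all tested genes. Among the 10 markers Tmem119 gave 86.0 to 87.7 and 79.6 to 110 CPM, and Cd68 41.3 to 45.8 and 5.07 to 10.2 CPM. C1qa gave 0.863 to 1.11 and 0.635 to 3.99 CPM, and Ptprc at most 0.0414 and 0.044 CPM. The part of these cells in the results below was not tested, and in bulk RNA more cells of a kind and more RNA per cell cannot be told apart.

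The pathway genes were mostly higher in the tumour libraries, and within a step the isozymes did not move alike. Of 33 members, all of which passed the filter on low counts, 19 rose, 3 fell and 11 were not called (edgeR quasi-likelihood test, adjusted p below 0.05). Over all 14359 tested genes 10.5% were called higher and 10.4% lower. The median log2 fold change, tumour over sham, was 0.87 over the members and -0.02 over all tested genes. The rises ranged from 0.53 to 2.59 on the log2 scale. The largest were those of Hk2 (hexokinase 2), Gbe1 (glycogen branching enzyme), Pfkl (liver-type phosphofructokinase) and Pygl (liver-type glycogen phosphorylase). The 3 genes that fell were Tigar, Pygb and Pygm. In 20 members the 3 tumour values lay above all sham values and in 4 below them, which held for 22.2% and 21.9% of all tested genes. All 19 rises and 3 falls had the same direction against sham 1 and 2 and against sham 3. The calls used these same libraries, so this is a description and not a separate check. After summing the close libraries (1 tumour sum against 2 sham samples) edgeR called no member. The log2 fold changes were then 0.45 (Hk1) to 2.63 (Gbe1) for the 19 rises and -1.38 (Pygm) to -0.54 (Pygb) for the 3 falls. The plot of fold changes by reaction step shows the members in pathway order.

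**Figure D1:**
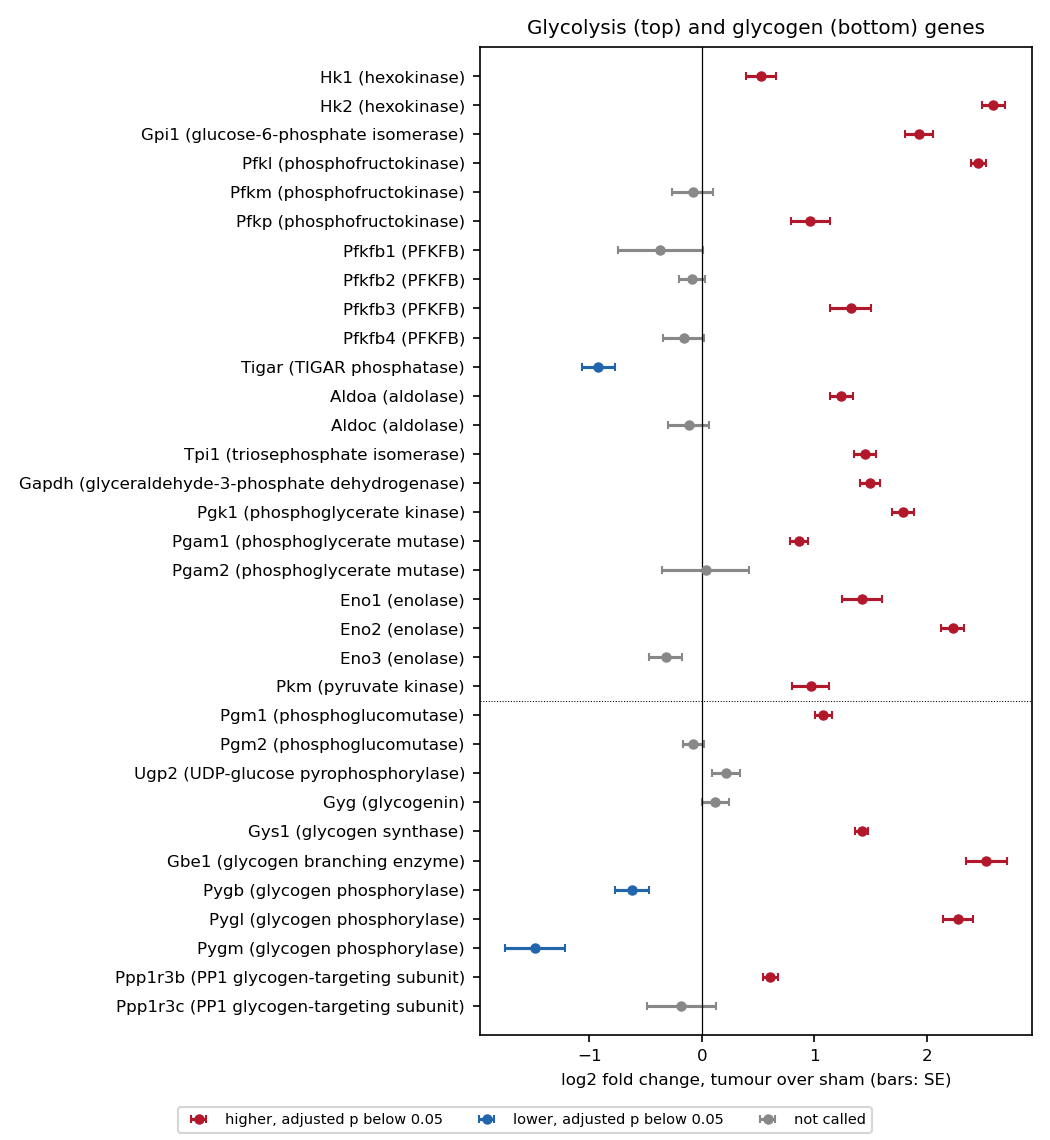
Log2 fold change of each of the 33 genes, tumour over sham (horizontal axis), in pathway order with the reaction step in parentheses; points are the edgeR estimates, bars the SE, and colours the call at an adjusted p below 0.05. The 19 genes called higher lie between 0.53 and 2.59, and the 3 called lower are Tigar, Pygb and Pygm.

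The start sites of the 6 genes with the largest rises are shown to set their promoter sequences beside the size of the change. HIF-1 is known to bind a short core motif, spelled ACGTG or GCGTG, and both were searched on both strands in the RefSeq promoter windows (GRCm38.p6) of 300 bases, 250 before and 50 after a start site. Capitals mark each match, so a match on the other strand appears as CACGT or CACGC. The Hk2 window is chr6:82774405-82774704 (minus strand), that of Gbe1 chr16:70313699-70313998 (plus strand), that of Pfkl chr10:78009758-78010057 (minus strand) and that of Pygl chr12:70227634-70227933 (minus strand). The Eno2 window (enolase 2) is chr6:124769624-124769923 (minus strand) and that of Gpi1 (glucose-6-phosphate isomerase) chr7:34230287-34230586 (minus strand). Each is printed 5′ to 3′ on the strand of the gene.
Hk2: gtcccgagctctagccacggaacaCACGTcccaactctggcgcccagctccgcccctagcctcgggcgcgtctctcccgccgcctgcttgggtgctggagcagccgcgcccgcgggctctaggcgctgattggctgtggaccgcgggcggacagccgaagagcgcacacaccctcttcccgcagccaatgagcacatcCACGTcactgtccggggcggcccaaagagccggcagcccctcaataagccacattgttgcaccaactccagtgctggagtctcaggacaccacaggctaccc
Gbe1: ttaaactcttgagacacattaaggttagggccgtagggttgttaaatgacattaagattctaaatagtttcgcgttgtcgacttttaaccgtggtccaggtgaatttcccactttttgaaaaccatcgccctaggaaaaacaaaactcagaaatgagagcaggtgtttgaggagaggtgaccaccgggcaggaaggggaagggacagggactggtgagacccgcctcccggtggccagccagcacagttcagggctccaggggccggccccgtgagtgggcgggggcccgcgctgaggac
Pfkl: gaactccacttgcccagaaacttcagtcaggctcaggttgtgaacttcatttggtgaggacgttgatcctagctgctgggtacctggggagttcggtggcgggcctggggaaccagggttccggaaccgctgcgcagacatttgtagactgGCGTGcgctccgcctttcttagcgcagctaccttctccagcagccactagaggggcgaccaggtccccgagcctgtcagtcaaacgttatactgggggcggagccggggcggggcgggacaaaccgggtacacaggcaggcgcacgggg
Pygl: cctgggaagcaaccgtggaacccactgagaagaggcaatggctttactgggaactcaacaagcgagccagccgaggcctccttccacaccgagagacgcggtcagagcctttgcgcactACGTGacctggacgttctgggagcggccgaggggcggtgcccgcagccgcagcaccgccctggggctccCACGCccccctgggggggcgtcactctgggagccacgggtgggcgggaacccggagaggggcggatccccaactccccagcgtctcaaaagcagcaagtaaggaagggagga
Eno2: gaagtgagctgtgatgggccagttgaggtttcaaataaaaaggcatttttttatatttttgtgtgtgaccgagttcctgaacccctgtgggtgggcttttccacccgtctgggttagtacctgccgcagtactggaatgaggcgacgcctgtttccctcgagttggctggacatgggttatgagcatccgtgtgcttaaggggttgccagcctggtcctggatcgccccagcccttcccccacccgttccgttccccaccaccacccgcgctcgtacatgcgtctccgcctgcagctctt
Gpi1: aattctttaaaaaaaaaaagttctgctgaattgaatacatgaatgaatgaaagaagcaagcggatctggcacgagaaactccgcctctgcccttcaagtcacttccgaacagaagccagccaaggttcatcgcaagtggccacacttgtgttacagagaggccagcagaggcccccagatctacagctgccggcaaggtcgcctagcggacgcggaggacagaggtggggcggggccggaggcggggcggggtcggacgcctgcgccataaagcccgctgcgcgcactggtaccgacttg

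Hk2 held 2 matches, with the nearer at base -52 from the start site. Pygl held 2 and Pfkl 1, whereas these letters were not in the Gbe1, Eno2 and Gpi1 windows, so 3 of the 6 held a match. Over the 32 members with a window (none was in the table for Ppp1r3b), 25 genes or 78.1% held at least 1 match, against 66.5% of the tested genes with a window and 46.7% of all genes in the table. Of the 18 members that rose and had a window 13 held a match (72.2%), and of the 14 other members 12 did (85.7%). These shares by gene depend on the number of windows a gene has. By window a match was in 68.0% of the 25 windows of members that rose and 70.8% of the 24 of the others. It was in 69.4% of all member windows and 60.5% of the windows of tested genes. Windows of the members had a median GC content of 60.3%, close to the 60.7% of the tested genes. The letters CG, which both spellings of the motif hold, were not matched. Their median count was 15 per member window and 20 per window of tested genes. It was 21 for members that rose and 8.5 for the other members. A match of these 5 letters is a description of the sequence and not a binding site, and it overlaps the E-box CACGTG, which 5 of the 49 member windows held (10.2%) and 9.51% of the windows of tested genes.

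Hexokinase traps glucose in the cell as glucose 6-phosphate. Hk2, the inducible isozyme that binds mitochondria, stood at 120.3, 125.5 and 119.6 CPM in tumour libraries 1 to 3 and at 19.0, 23.2 and 18.3 CPM in sham libraries 1 to 3. It rose 6.03-fold (log2 fold change 2.59, SE 0.10, adjusted p = 8.49e-05), with a wide gap between the groups. Hk1, the constitutive brain isozyme, had 229.8, 232 and 228.3 CPM against 137.1, 148.3 and 193.4 CPM, and sham 3 came nearest to the tumour level. Its log2 fold change of 0.53 (SE 0.13, adjusted p = 0.0363) lost the call without any 1 of the tumour libraries or without sham 1 or 2 (0.42 to 0.53, adjusted p = 0.099 to 0.126). Blocking on the replicate number (0.54, adjusted p = 0.0658) and transcript length offsets (0.49, adjusted p = 0.06) also ended it. In TPM, a level scaled for transcript length and library size, Hk2 made up 29.2%, 30.5% and 30.8% of the 2 hexokinase genes in the tumour libraries and 9.90%, 11.5% and 7.0% in the sham libraries. Hk1 remained the more abundant isozyme in every library. Gpi1, which turns glucose 6-phosphate into fructose 6-phosphate, had 1566, 1548 and 1546 CPM against 372.3, 386.1 and 463.3 CPM, a 3.81-fold rise (log2 fold change 1.93, SE 0.12, adjusted p = 0.000509).

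**Figure D2:**
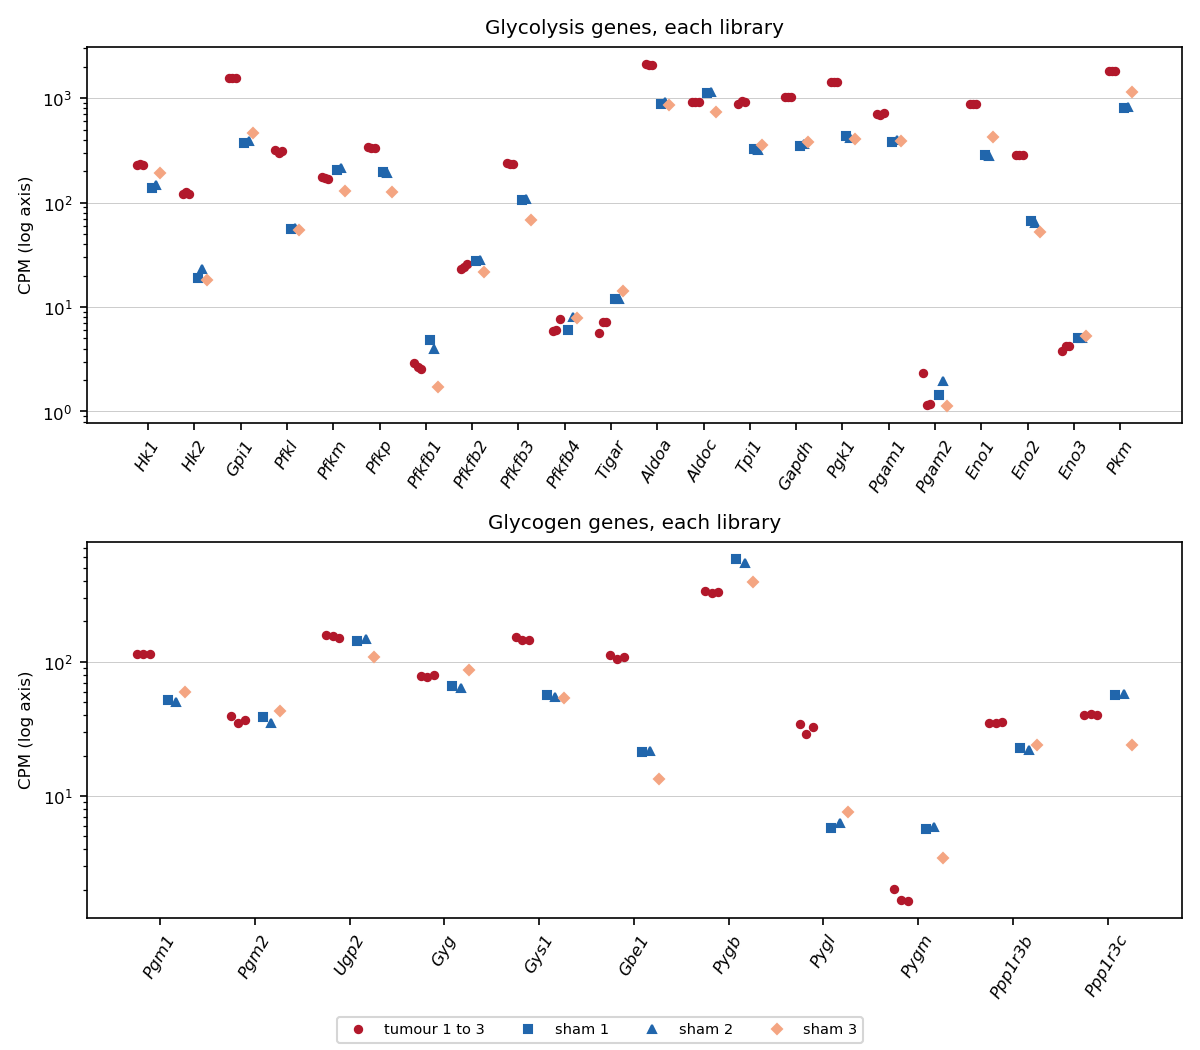
Level of each gene in each library in CPM on a log axis, glycolysis genes above and glycogen genes below; circles are tumour libraries 1 to 3, squares, triangles and diamonds sham libraries 1, 2 and 3. The tumour circles of most genes lie close together, with Pgam2 (1.15 to 2.32 CPM) an exception, while sham 3 lies apart from sham 1 and 2 for genes such as Pfkp, Aldoc and Ppp1r3c.

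Phosphofructokinase commits fructose 6-phosphate to glycolysis, and its 3 genes behaved differently. Pfkl had 316.7, 296.7 and 309.5 CPM in the tumour libraries and 56.1, 57.5 and 54.1 CPM in the sham libraries, a 5.50-fold rise with the smallest sham spread of the 3 (log2 fold change 2.46, SE 0.07, adjusted p = 4.25e-05). Pfkp, the platelet type, had 339.3, 336.1 and 332.8 CPM against 195.9, 193.2 and 126.9 CPM (log2 fold change 0.97, SE 0.17, adjusted p = 0.012). Its call ended without any 1 of the tumour libraries (0.96 to 0.97, adjusted p = 0.0579 to 0.0606). Pfkm, the muscle type, had 174.4, 172.8 and 169.9 CPM against 204.7, 213.4 and 129.5 CPM, so its groups overlapped (log2 fold change -0.08, SE 0.18, adjusted p = 0.787). Without sham 3 Pfkm was called lower at -0.28. In that setting, with only close libraries left in each group, 4250 of 14618 tested genes were called higher and 4179 lower. By TPM the Pfkl share of the step was 37.7%, 35.6% and 32.5% in the tumour libraries and 12.7%, 11.3% and 13.7% in the sham libraries. That of Pfkm was 20.7%, 20.9% and 21.97% against 44.2%, 46.8% and 42.4%. The Pfkp share, 41.6% to 45.5% and 41.9% to 43.9%, overlapped between the groups.

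The PFKFB enzymes make and break fructose 2,6-bisphosphate, the strongest activator of phosphofructokinase. Pfkfb3, the isozyme with the highest kinase over phosphatase activity, had 239.4, 233 and 232.2 CPM in the tumour libraries and 106, 107.9 and 67.5 CPM in the sham libraries. It rose 2.50-fold (log2 fold change 1.32, SE 0.18, adjusted p = 0.0054), and its lowest tumour value was above the highest sham value. The other genes of the family were not called. Pfkfb2 had 23.0 to 25.6 CPM against 21.7 to 28.1 CPM (log2 fold change -0.09), Pfkfb4 5.88 to 7.66 against 5.98 to 8.02 CPM (-0.16) and Pfkfb1 2.57 to 2.94 against 1.72 to 4.84 CPM (-0.37). Without sham 3 Pfkfb1 (-0.70) and Pfkfb2 (-0.20) were called lower, beside 4179 of the 14618 genes tested that way. Pfkfb3 made up 78.7% to 78.9% of the family's TPM in the tumour libraries and 56.9% to 60% in the sham libraries. Tigar, a phosphatase that lowers fructose 2,6-bisphosphate, had 5.63, 7.24 and 7.19 CPM against 11.87, 11.97 and 14.11 CPM. It fell by 0.92 on the log2 scale (SE 0.15, adjusted p = 0.00915), and every tumour value was below every sham value.

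In the lower part of glycolysis the main isozyme of each step rose. Aldoa, aldolase A, had 2119, 2055 and 2095 CPM in the tumour libraries and 882.6, 913.4 and 853.8 CPM in the sham libraries, a 2.37-fold rise (log2 fold change 1.24, SE 0.10, adjusted p = 0.0012). Aldoc, the brain aldolase that serves as an astrocyte marker, had 914.4, 926.3 and 912 CPM against 1117, 1138 and 729.6 CPM. The tumour values of Aldoc lay between those of sham 3 and of sham 1 and 2 (log2 fold change -0.12, SE 0.18, adjusted p = 0.693). Without sham 3 Aldoc was called lower at -0.30, beside 4179 of the 14618 genes tested that way. Aldoa thus made up 75.0% to 75.9% of aldolase TPM in the tumour libraries against 51.8%, 52.3% and 62.5% in sham 1 to 3. A second gene identifier with the symbol Aldoa, with 14 to 46 reads per library, was kept apart.

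Tpi1, which interconverts the triose phosphates, had 874.9, 944.1 and 920.2 CPM in the tumour libraries and 324.7, 320.2 and 356.5 CPM in the sham ones (log2 fold change 1.45, SE 0.10, adjusted p = 0.000549). Gapdh, the NADH-forming step often used as a reference gene, had 1020, 1036 and 1025 CPM against 348.3, 362.6 and 381.2 CPM (2.82-fold, log2 SE 0.09, adjusted p = 0.000438). In the files 54.8% to 62.1% of Gapdh TPM was assigned to a transcript annotated as a retained intron, so its level per length is less certain than its change. Pgk1, the first ATP-forming step, had 1433, 1432 and 1439 CPM against 429.4, 414.5 and 402.4 CPM and rose 3.45-fold (1.79, SE 0.10, adjusted p = 0.000274). For these 3 single-gene steps the libraries of a group lay close together, and sham 3 stood with sham 1 and 2. Salmon divides reads between near-identical copies, and Gapdh, Pgk1, Tpi1, Eno1 and Aldoa have processed pseudogenes, so that their absolute levels are uncertain.

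Pgam1, the general phosphoglycerate mutase, had 712.1, 691.4 and 717.2 CPM in the tumour libraries and 381.1, 396.3 and 386.5 CPM in the sham libraries, a 1.82-fold rise (log2 fold change 0.87, SE 0.08, adjusted p = 0.00175). The muscle gene Pgam2 was near the limit of measurement, at 1.15 to 2.32 and 1.13 to 1.95 CPM (0.03, SE 0.39), and Pgam1 held at least 98.9% of the step's TPM in every library. Of the enolases, Eno1, the general form, had 886.6, 886.6 and 880.4 CPM against 282.8, 281.2 and 423.8 CPM (1.43, SE 0.18, adjusted p = 0.00411). Eno2, the form known as neuron-specific enolase and used as a serum marker of SCLC, had 286.5, 283.8 and 285.8 CPM against 66.0, 63.9 and 52.2 CPM, a 4.70-fold rise (2.23, SE 0.10, adjusted p = 0.000153). Beside this rise, the 8 neuronal markers summed to 164.9 to 167.2 CPM in the tumour libraries and 147.0 to 216.5 CPM in the sham libraries. Of these 8 markers 1, Gad1, lay above all sham libraries (6.75, 6.25 and 6.0 against 1.98, 2.08 and 1.77 CPM). Another 3, Tubb3, Snap25 and Syt1, lay below them. Over all tested genes 22.2% lay above and 21.9% below. Rbfox3 had 0 reads in all libraries, and Stmn2, Map2 and Slc17a7 overlapped between the groups. The part of neurons or tumour cells in the Eno2 rise was not tested. Eno3, the muscle form, had 3.81 to 4.28 against 5.06 to 5.26 CPM (-0.32, SE 0.15, adjusted p = 0.165). The Eno2 share of enolase TPM was 21.7%, 21.8% and 21.97% in the tumour libraries and 16.7%, 15.5% and 10.9% in the sham libraries, and Eno1 remained the main form in all of them.

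**Figure D3:**
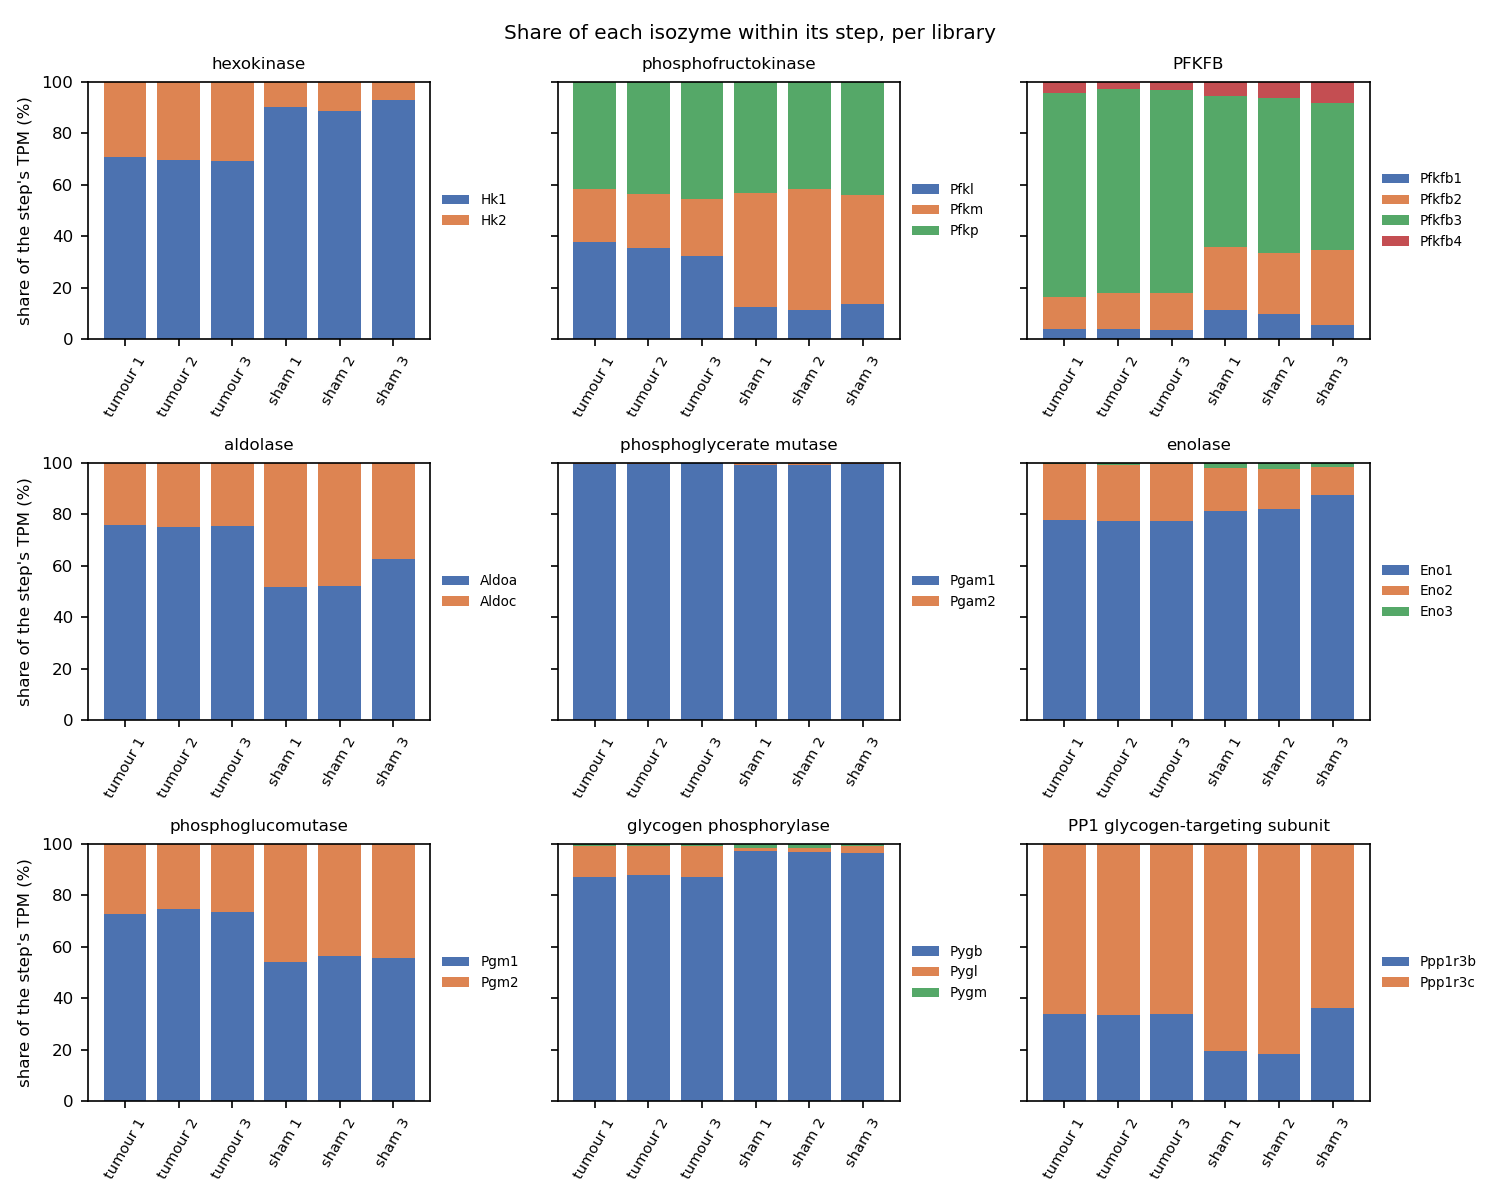
Share of each isozyme in the summed TPM of its step (vertical axis, percent) in each of the 6 libraries, for the 9 steps with at least 2 of the genes. Hk2, Pfkl, Pfkfb3, Aldoa, Eno2, Pgm1 and Pygl hold a larger share in every tumour library than in every sham library.

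Pkm encodes pyruvate kinase, the last step, and makes the M1 and M2 forms from mutually exclusive exons. M2 is the form of proliferating cells and astrocytes, and M1 that of muscle and neurons. The exons are shown because they distinguish the 2 forms. The M1 exon (exon 9, chr9:59675029-59675195, plus strand) and the M2 exon (exon 10, chr9:59675568-59675734, plus strand) lie in coding sequence of GRCm38 and are both 167 bases long. Aligned without gaps they share 103 bases (61.7%), and capitals mark the 64 positions at which they differ.
M1 exon: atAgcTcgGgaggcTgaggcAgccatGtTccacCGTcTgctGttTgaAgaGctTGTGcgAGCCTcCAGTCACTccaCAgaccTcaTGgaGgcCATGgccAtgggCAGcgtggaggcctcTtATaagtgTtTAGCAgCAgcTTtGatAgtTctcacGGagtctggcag
M2 exon: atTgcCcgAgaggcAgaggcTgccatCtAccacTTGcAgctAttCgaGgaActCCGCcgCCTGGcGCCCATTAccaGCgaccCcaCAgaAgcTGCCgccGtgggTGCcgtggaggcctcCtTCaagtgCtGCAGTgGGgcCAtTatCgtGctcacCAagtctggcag

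Over all its transcripts Pkm had 1801, 1809 and 1814 CPM in the tumour libraries and 802.6, 822 and 1144 CPM in the sham ones (log2 fold change 0.97, SE 0.17, adjusted p = 0.0108). This call ended without any 1 of the tumour libraries (adjusted p = 0.0571 to 0.0578, log2 fold change 0.97). The M2 transcript had 911.1, 884.6 and 893.5 TPM in the tumour libraries and 397.5, 422.2 and 563.8 TPM in the sham libraries. The M1 transcript had 118, 120.6 and 120.6 TPM against 30.2, 34.45 and 79.5 TPM. Both forms were higher in every tumour library than in every sham library. The M2 share of the 2 forms was 88.5%, 88.0% and 88.1% in the tumour libraries and 92.95%, 92.5% and 87.6% in the sham libraries, and sham 3 lay below the tumour libraries. The difference of -2.80 percentage points was within the spread of the sham libraries (exact permutation test, two-sided p = 0.4). The other 9 annotated Pkm transcripts, which hold neither exon, took 3.06% to 5.65% of Pkm TPM.

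**Figure D4:**
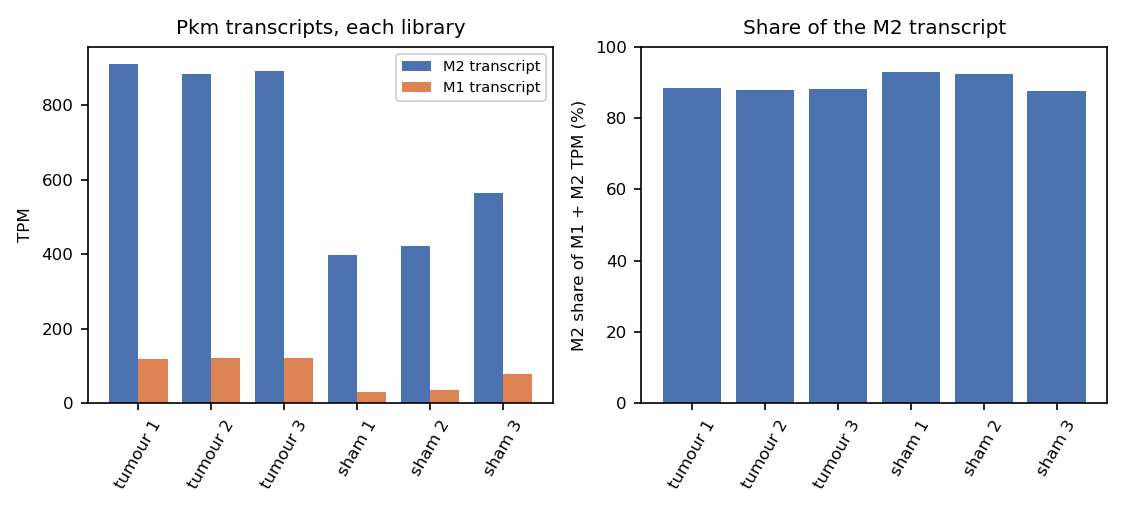
TPM of the M2 and M1 transcripts of Pkm in each library (left) and the M2 share of their sum in percent (right). Both transcripts are higher in the 3 tumour libraries, and the M2 share lies between 87.6% and 92.95% in all 6 libraries.

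In glycogen synthesis 3 genes rose and 3 were not called. Pgm1, the phosphoglucomutase that links glucose 6-phosphate to glucose 1-phosphate, had 114.9, 113.7 and 113.9 CPM in the tumour libraries and 52.1, 50.3 and 59.6 CPM in the sham ones (log2 fold change 1.08, SE 0.08, adjusted p = 0.000711). Gys1, the glycogen synthase of most tissues, had 153, 145.2 and 145.3 CPM against 56.4, 54.9 and 54.0 CPM and rose 2.68-fold (1.42, SE 0.06, adjusted p = 8.56e-05). Gbe1, which adds the branches, had 111.8, 104.6 and 108.7 CPM against 21.2, 21.5 and 13.4 CPM and rose 5.78-fold (2.53, SE 0.18, adjusted p = 0.000732). The 3 genes thus stood far above all sham libraries. Pgm2, whose product acts mainly on pentose phosphates, had 34.9 to 39.5 CPM against 35.2 to 43.0 CPM (-0.07). The Pgm1 share of the 2 genes' TPM was 72.5% to 74.7% in the tumour libraries and 54.0% to 56.6% in the sham libraries. Ugp2, which forms UDP-glucose, had 149.4 to 157.7 against 108 to 149 CPM (0.21, adjusted p = 0.271). Gyg, the protein primer glycogenin, had 77.1 to 79.9 against 64.1 to 86.3 CPM (0.12, adjusted p = 0.519). Without sham 3 Gyg was called higher at 0.27, beside 4250 of the 14618 genes tested that way.

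The 3 glycogen phosphorylase genes, which release glucose 1-phosphate, moved in opposite directions. Pygl rose from 5.805, 6.32 and 7.58 CPM in sham 1 to 3 to 34.4, 28.9 and 32.5 CPM in tumour 1 to 3, a 4.86-fold change (log2 fold change 2.28, SE 0.13, adjusted p = 0.000336). Pygb, the brain type, had 334.1, 325.5 and 331 CPM in the tumour libraries against 582.3, 545 and 395.3 CPM in the sham libraries and fell by 0.62 (SE 0.15, adjusted p = 0.0336). Pygm, the muscle type, had 2.03, 1.69 and 1.66 CPM against 5.72, 5.90 and 3.45 CPM and fell by 1.49 (SE 0.27, adjusted p = 0.0127). The call of Pygl was kept whichever library was left out. Pygb lost its call without any 1 library other than sham 3 (-0.63 to -0.52, adjusted p = 0.0914 to 0.13) and after blocking on replicate number (adjusted p = 0.0725). Pygm lost it without any 1 of the tumour libraries (-1.58 to -1.43, adjusted p = 0.0542 to 0.0674) and with transcript length offsets (-1.05, adjusted p = 0.0921). By TPM Pygl made up 11.3% to 12.02% of the step in the tumour libraries and 1.34% to 2.55% in the sham libraries, so Pygb remained the main form at 86.9% or more.

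Protein phosphatase 1 is brought to glycogen by targeting subunits, which switch synthase on and phosphorylase off. Ppp1r3b had 34.7, 34.7 and 35.7 CPM in the tumour libraries and 23.0, 22.1 and 23.9 CPM in the sham libraries, a 1.525-fold rise (log2 fold change 0.61, SE 0.07, adjusted p = 0.00273). Ppp1r3c, the subunit also called PTG, had 39.9, 40.6 and 40.5 CPM against 56.2, 57.1 and 24.1 CPM. The tumour values of Ppp1r3c lay between sham 3 and the other sham libraries (-0.18, SE 0.31, adjusted p = 0.711). Without sham 3 Ppp1r3c was called lower at -0.49, beside 4179 of the 14618 genes tested that way. The share of Ppp1r3b in the 2 genes overlapped between the groups, at 33.4% to 33.9% and 18.4% to 36.4%.

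Over the 9 steps and the Pkm forms 19 shares were tested, with a 2-gene step counted once. In 15 of them the 3 tumour values did not overlap the 3 sham values, and in 4 they did, those of Pfkp, Pgam1, Ppp1r3b and the M2 form. By CPM of single genes, the tumour values lay above all sham values in 22.2% of all tested genes and below them in 21.9%. No such background was computed for shares. With 3 against 3 libraries the exact permutation test cannot go below p = 0.1 (two-sided), which is the p of each of the 15, and their adjusted p was 0.127. The shares of a step are not independent of each other. The largest differences of the means, tumour minus sham, were -23.3 percentage points for Pfkm, 22.7 for Pfkl, 20.4 for Pfkfb3, 19.9 for Aldoa and 18.2 for Pgm1, beside -20.8 for Hk1. Each exceeded the SD of either group, of which the largest among these steps was 6.06 percentage points, for Aldoa in the sham libraries.

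The 2 sets of sham libraries gave different answers for some members. In 8 of 33 the tumour mean lay on opposite sides of sham 3 and of the mean of sham 1 and 2, namely Pfkm, Pfkfb1, Pfkfb2, Aldoc, Pgam2, Pgm2, Gyg and Ppp1r3c. None of these was called with all 6 libraries, and a gene with such sham values can hardly be called. For the 19 genes that rose, the log2 ratio of the tumour mean was 0.64 to 2.53 over sham 1 and 2 and 0.25 to 3.01 over sham 3. Gbe1, Pfkfb3 and Pfkp stood farther from sham 3 (3.01, 1.80 and 1.41) than from sham 1 and 2 (2.34, 1.14 and 0.79). Eno1, Pkm and Hk1 stood nearer to sham 3 (1.06, 0.66 and 0.25, against 1.65, 1.15 and 0.69).

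**Figure D5:**
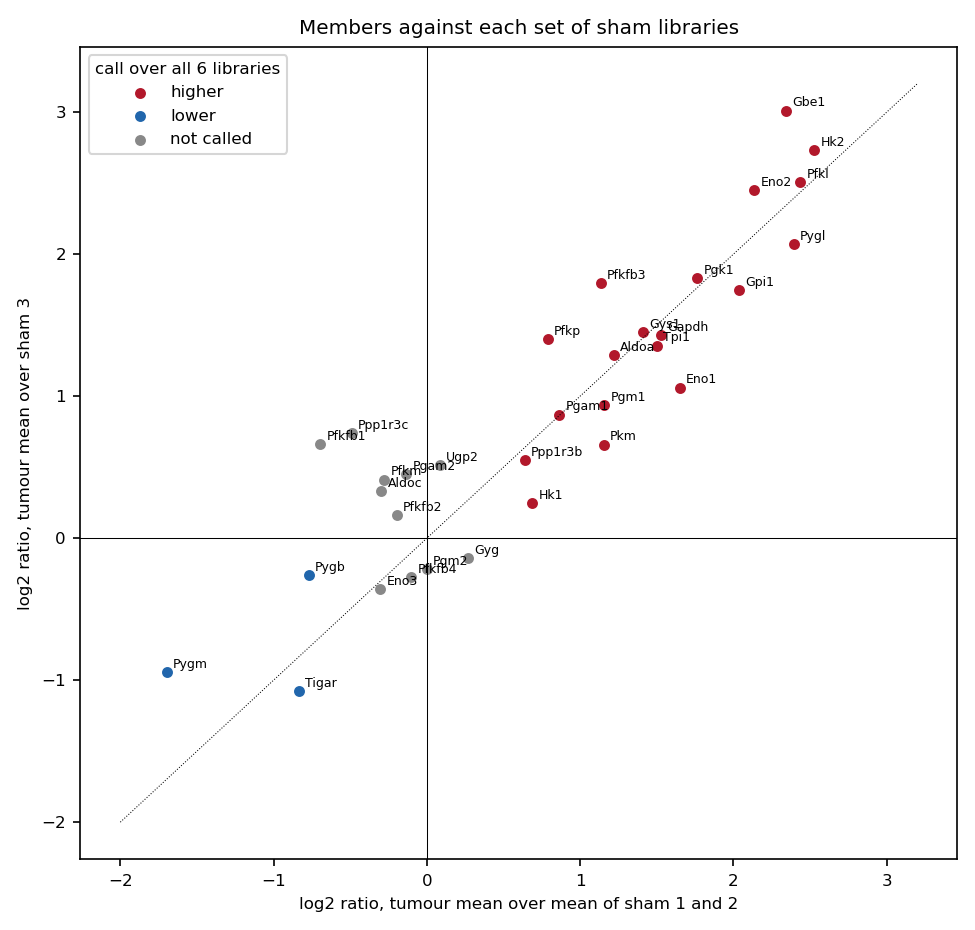
Log2 ratio of the mean tumour CPM of each gene over the mean of sham 1 and 2 (horizontal axis) and over sham 3 (vertical axis); each point is a gene, colours give the call with all 6 libraries, and the dotted line marks equal ratios. All 22 called genes lie in the quadrants of equal sign, and 8 of the uncalled genes do not.

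Other genes of the same pathways were taken from fixed lists. Of 21 further glycolysis genes 11 were expressed enough to be tested, of which 2 rose and 1 fell (median log2 fold change 0.01), beside 10.5% and 10.4% of all tested genes. Of the 2 that rose 1 passed the filter on low counts only through the tumour libraries. The other 10 had at most 10 reads in any library, among them the liver pyruvate kinase gene Pklr and the gluconeogenic genes Fbp1 and Fbp2, the last 2 with 0 reads. Ldha, the lactate dehydrogenase subunit that favours lactate formation, had 1158, 1167 and 1164 CPM in the tumour libraries and 423.6, 429.2 and 521.9 CPM in the sham ones (log2 fold change 1.34, SE 0.12, adjusted p = 0.00135). Ldhb, the subunit that favours pyruvate, had 287.1, 278.6 and 287 against 398, 395 and 232.9 CPM (-0.27, SE 0.21, adjusted p = 0.398). Without sham 3 Ldhb was called lower (-0.48), beside 4179 of the 14618 genes tested that way. Bpgm, which diverts an intermediate to bisphosphoglycerate, had 15.2, 13.9 and 13.2 CPM against 25.1, 24.0 and 17.8 CPM and fell by 0.66 (SE 0.15, adjusted p = 0.0251) and lost its call without any 1 library other than sham 3 (-0.72 to -0.58, adjusted p = 0.0752 to 0.108).

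Of 20 further glycogen genes 18 were tested, of which 6 rose and 1 fell (median log2 fold change 0.15), beside 10.5% and 10.4% of all tested genes. Ppp1r3g, another glycogen-targeting subunit, had 1.58 to 2.84 CPM in the tumour libraries and 0.0440 to 0.0908 CPM in the sham libraries. Its 164 reads against 5 gave a ratio of 30.6 with a 95% counting interval of 12.85 to 95.5. This gene passed the filter only through the tumour libraries, where it was high, so its call, counted among the 6, is a description and no test of it is given. Epm2a, the gene of the glycogen phosphatase laforin, had 25.4, 28.5 and 24.7 CPM against 11.04, 9.27 and 5.72 CPM and rose 3.02-fold (log2 fold change 1.59, SE 0.23, adjusted p = 0.00654). Gaa, the lysosomal glucosidase, had 507.1, 495.4 and 511.3 against 403.1, 398.9 and 404.9 CPM (0.33, SE 0.08, adjusted p = 0.029), a call that ended without any 1 library other than sham 3 (0.32 to 0.34, adjusted p = 0.096 to 0.132). Phkb, the beta subunit of phosphorylase kinase, had 60.5, 60.9 and 59.2 against 85.4, 84.5 and 82.35 CPM and fell by 0.48 (SE 0.05, adjusted p = 0.00274).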

How the data were processed

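RNA of 6 libraries of mouse astrocytes, 3 tumour and 3 sham, was quantified per transcript. The authors deposited estimated counts (reads assigned by Salmon 0.8.2, with the mouse build mm10 and DESeq2 1.28.1 also named, per the submitters' processing notes) and TPM, per the file headers, with transcript lengths as other columns. The 113116 transcripts were matched to genes with the GENCODE M21 annotation. 275 transcripts found no gene and were left out, and 99.947% to 99.958% of the estimated counts were kept. The deposited estimated counts were added up over the transcripts of a gene and then rounded to integers. Genes were filtered with filterByExpr (minimum count 10, total 15), scaled by TMM and tested with edgeR 4.0.16 (quasi-likelihood, robust, group only, R 4.3.3) over the 6 libraries, with Benjamini-Hochberg adjustment over all 14359 genes tested and a threshold of 0.05. The edgeR procedure was tested on simulated data. It found 64% of 2-fold and 85% of 4-fold changes, and 6.5% of its calls were false. The false share was 25.5% for DESeq2 and 5.4% for limma-voom. The simulated libraries were independent, without the close libraries and the distant sham 3 of these data, so the simulation does not cover that feature. Isozyme shares are shares of summed TPM, compared with exact two-sided permutation tests (scipy 1.17.1). Reads summed over a group carry exact 95% counting intervals, which cover counting error only. Alternatives were RLE factors, DESeq2 1.42.0, limma-voom 3.58.1, no filter, transcript length offsets, the replicate number as a block, each library left out, the near libraries summed and, for shares, estimated counts in place of TPM.

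Per-library values are given for members called or among the 12 with the highest mean TPM, and for up to 6 called genes of the other pathway lists in each direction. Ldha and Ldhb are always named. Some genes of these lists are counted but not reported here by name. The members and lists were chosen with earlier results of these data known. Sequences are from RefSeq (promoters) and from the reference transcripts with GENCODE M21 exons (Pkm).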

Additional observations from a re-analysis of the deposited data

How the results depend on the processing

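Of 429 log2 fold changes of the members under the alternatives, 369 kept their direction and side of the threshold, 45 lost the call, 6 gained one and 9 changed sign. With the near libraries summed (1 tumour value against 2 sham values) edgeR called no gene in either direction, and so no member and none of the other pathway genes. Over all genes the higher count was 1506 and the lower 1492. They were 829 and 607 with the replicate block, the lower was 969 with transcript length offsets, and without 1 library they ranged from 536 to 4250 and from 355 to 4179, highest without sham 3. Members called higher ranged from 16 to 20 and lower from 1 to 8 without 1 library, and stood at 18 and 2 with the replicate block or length offsets. Other glycolysis genes called higher were 1 with length offsets, and those called lower 0 to 3 without 1 library. Other glycogen genes called higher were 3 with the replicate block and 3 to 9 without 1 library, and those called lower 1 to 3. Between tumour and sham libraries of the same replicate number, deviations from the group mean had correlations of -0.0194 to 0.00785. With the tumour libraries so close and sham 3 so far apart, these values cannot show whether the libraries were paired. Signs changed for members that were not called. Pfkm was at 0.0187 with near libraries summed and from -0.28 (without sham 3) to 0.040 (without sham 2) when 1 library was left out, with 0.0024 without sham 1. Pgam2 was at -0.0227 with limma-voom, -0.0024 with the replicate block and from -0.37 (without tumour 1) to 0.26 (without sham 2) when 1 library was left out. Ppp1r3c ranged from -0.49 (without sham 3) to 0.0011 (without sham 2). The Pfkp share difference was -0.608 percentage points from estimated counts and ranged from -0.373 (without tumour 3) to 1.58 (without tumour 1), and 131 of 133 shares kept direction and side. The cause of these changes was not tested. With 3 libraries a group, the exact permutation test of a share cannot go below p = 0.1.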
